A study of Mus musculus with 32 samples.

Results

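Cardiac fibroblasts given transforming growth factor beta (TGFb) were compared directly with cardiac fibroblasts given interleukin-1 beta (IL-1b), a comparison of the contractile, matrix-building myofibroblast state with the inflammatory state. It uses 8 of the 32 poly(A) RNA libraries of the series: 4 from cells that received TGFb at 10 ng/ml and 4 from cells that received IL-1b at 15 ng/ml, each for 24 h and without serum. All 8 came from mouse cells at passage 1 labelled C57BL/6J_Pkm2fl/fl, which carry a floxed allele of the pyruvate kinase gene Pkm. All had received the LacZ vector, the control for the recombinase iCre, so the floxed allele was meant to stay intact in both groups. A further 4 LacZ libraries with no added factor (titled SS, an abbreviation that the labels leave unexplained) serve as the common baseline. The 4 iCre libraries with TGFb and the 4 with IL-1b serve as a second run of the same comparison in cells whose floxed allele was meant to be recombined.

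Groups were taken from the sample titles, and the doses from a protocol text that otherwise describes TAK1fl/fl mice and a TNFa arm. The treatment tags go against the titles: libraries titled LacZ_TGFB carry the tag LacZ_IL1b, those titled LacZ_ILB the tag LacZ_Con, and those titled LacZ_SS the tag LacZ_bFGF. Every direction given here rests on the titles. Nothing in the labels says that the 4 libraries of a group came from separate mice or cultures, so p-values measure the spread between these libraries, which may be technical.

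TGFb binds a pair of serine/threonine kinase receptors that phosphorylate the transcription factors Smad2 and Smad3, and in fibroblasts it switches on smooth muscle actin, collagens and the enzymes that harden matrix. IL-1b binds the receptor IL1R1, which signals through MyD88, IRAK kinases and TAK1 to the transcription factor NF-kB and to MAP kinases, and switches on chemokines, cytokines and proteases. In the injured heart both proteins reach the same fibroblasts, the inflammatory signal as a rule before the scar-forming one.

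Levels are given as CPM, read counts scaled to a common library total, in libraries 1 to 4. The scaling used the trimmed mean of M values (TMM). Differences are given as log2 fold changes of TGFb over IL-1b with their standard errors. A mean CPM carries ± its SD over 4 libraries. A gene is called higher or lower with TGFb when its adjusted p (edgeR, Benjamini-Hochberg over all 16760 genes tested) is under 0.05. The 8 libraries held 22072005 to 29133901 counts each, and their 10 most abundant genes took 8.12% to 12.4% of the counts. TMM factors were 0.891 to 0.916 with TGFb, below the 0.949 to 1.06 with IL-1b. Same-numbered libraries deviated from their group means together. A fit that blocks on the number is therefore given for named genes whose call changes under it, and for many lists whose counts change.

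With TGFb, 3458 genes were higher (20.6% of those tested) and 3096 were lower (18.5%) than with IL-1b, 6554 in all (39.1%). With the replicate block 4348 were higher (25.9%) and 4245 lower (25.3%). These shares are the background for every list count of the direct comparison in LacZ cells below. At a fold change of at least 2, 949 genes were higher (5.66%) and 1637 were lower (9.77%). At a fold change of at least 8 there were 189 higher (1.13%) and 391 lower (2.33%). In this fit, calls of every size together were more often higher than lower with TGFb, while those of at least 2-fold were more often lower. The split over every size turned with the fit. A fit to only the 8 libraries compared gave 2821 higher and 3039 lower (3206 and 3718 with the block). Without IL-1b library 2 there were 2815 and 2896, without IL-1b library 3 there were 3044 and 3053, and DESeq2 gave 3440 and 3404. Scaling by total counts alone put the median log2 fold change of all genes at -0.13, against -0.003 under TMM, and the split of calls at 2416 higher and 3594 lower. The values of the 4 TGFb libraries lay wholly above or wholly below those of the 4 IL-1b libraries for 6315 genes (37.7%). Set against SS, from the same fit and with the same 4 SS libraries on both sides, TGFb raised 3925 genes (23.4%) and lowered 3834 (22.9%). IL-1b raised 1853 (11.1%) and lowered 1363 (8.13%). With total counts alone TGFb raised 2553 and lowered 5078, and IL-1b raised 1375 and lowered 1625. The IL-1b counts were the less settled: with the replicate block IL-1b raised 2810 (16.8%) and lowered 2608 (15.6%), without the libraries of number 4 it lowered 2196, and without SS library 2 it lowered 907.

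**Figure D1:**
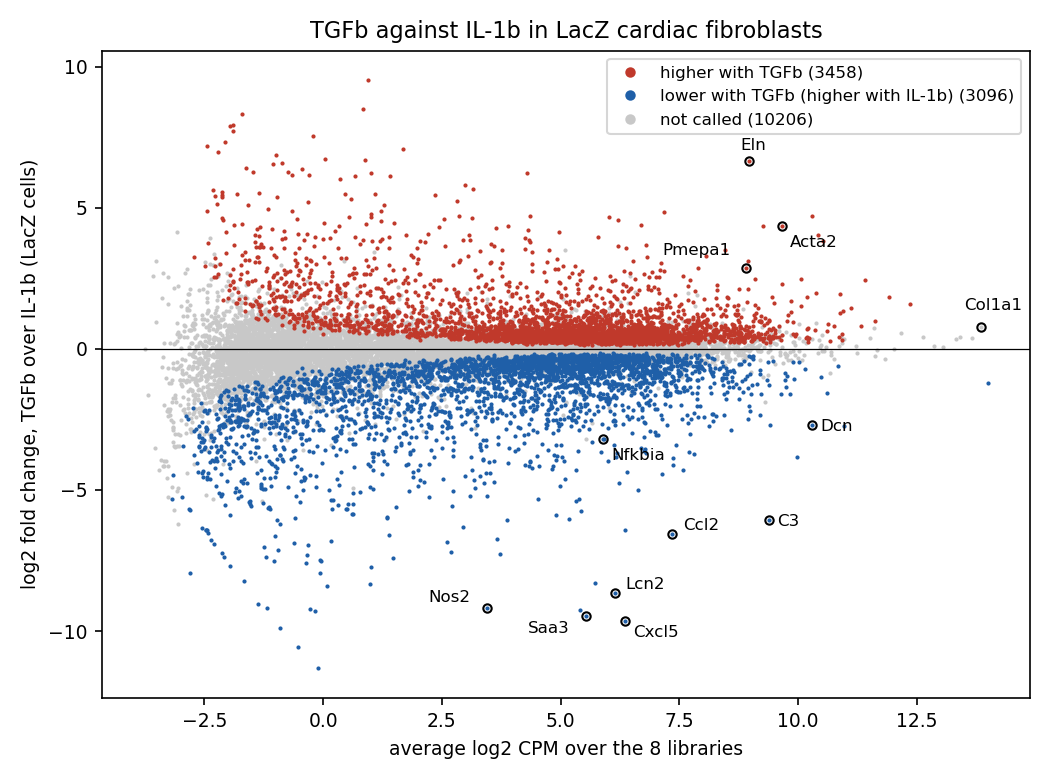
Log2 fold change of TGFb over IL-1b in LacZ fibroblasts (vertical axis) against the average log2 CPM over the 8 libraries (horizontal axis) for the 16760 genes tested, with called genes in colour and some named genes labelled. Of the labelled genes Cxcl5 stands lowest, at -9.63, and Eln highest, at 6.68, while Col1a1 is in grey close to 0.

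The 15 largest increases among well expressed genes (average log2 CPM of at least 3, groups that do not overlap) were led by Eln, which encodes elastin. Eln counted 1349, 6254, 797 and 22014 CPM with TGFb, against 67.3, 103, 49.6 and 77.1 CPM with IL-1b. Every TGFb library stood above every IL-1b library, but the TGFb libraries themselves spread widely, with number 4 the highest. The log2 fold change was 6.68 ± 1.06, adjusted p = 1.53e-05, 5.24 without TGFb library 4. Adamtsl2, a secreted protein of the elastic microfibril, counted 127, 253, 65.4 and 289 CPM with TGFb, against 2.14, 3.502, 1.86 and 2.35 CPM with IL-1b, again with no overlap (log2 fold change 6.22 ± 0.73, adjusted p = 1.79e-07). Also among the 15 were Col8a2 (collagen VIII), Fxyd6 (a regulator of the sodium pump), Meox1 (a homeobox transcription factor), Rflnb (a filamin-binding protein), Il11 (interleukin-11), Piezo2 (a stretch-gated ion channel), Ccn4 (a matricellular protein), Tagln (transgelin), Acta2 (smooth muscle alpha-actin), Plxna4 (a semaphorin receptor), Olfm2 and Pdgfc (a platelet-derived growth factor). Their log2 fold changes ran from 4.22 for Pdgfc to 5.65 for Col8a2, and that of Plxna4, 4.34 ± 0.55, was 5.29 without IL-1b library 4.

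The 15 largest decreases were larger and came mainly from secreted inflammatory proteins. Cxcl5, a neutrophil-attracting chemokine, counted 2.29, 3.89, 2.105 and 3.53 CPM with TGFb, against 2691, 2508, 1781 and 2394 CPM with IL-1b. Saa3, an acute-phase serum amyloid that fibroblasts can make themselves, counted 1.93, 1.67, 1.81 and 1.98 CPM with TGFb, against 1189.9, 1542, 399.7 and 2152 CPM with IL-1b. Nos2, the inducible nitric oxide synthase, counted 0.203, 0.492, 0.463 and 0.546 CPM with TGFb, against 274, 174, 296 and 283 CPM with IL-1b. In each of these genes the lowest IL-1b library stood far above the highest TGFb library, so the groups were apart whichever library is taken. Their log2 fold changes were -9.63 ± 0.51, adjusted p = 8.87e-14 for Cxcl5, -9.48 ± 0.50, adjusted p = 8.87e-14 for Saa3 and -9.20 ± 0.29, adjusted p = 1.69e-18 for Nos2. Against SS, Nos2 and Saa3 stood at -0.01 ± 0.33 (adjusted p = 0.994) and -0.33 ± 0.40 (adjusted p = 0.516) with TGFb, so for these genes the gap to IL-1b was about as large as the IL-1b increase over SS. Cxcl5 was itself lower with TGFb than in SS (-3.05 ± 0.39, adjusted p = 5.92e-07). The rest of the 15 were Cxcl1, Ccl2 and Ccl7 (chemokines), Lcn2 (the siderophore-binding lipocalin-2), Steap4 (a metalloreductase), Aldh3a1 (an aldehyde dehydrogenase), Gbp6 and Gbp9 (interferon-induced GTPases), Hp (haptoglobin), C3 (complement factor 3), Lgi2 and Selp (P-selectin). Hp was at 0.458, 0.935, 0.463 and 9.50 CPM with TGFb, and its log2 fold change of -6.08 ± 1.39 became -8.30 without TGFb library 4. Gbp6 and Gbp9 belong to a cluster of near-identical genes, and how reads shared between such copies were counted is not given in the sources used here.

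**Figure D2:**
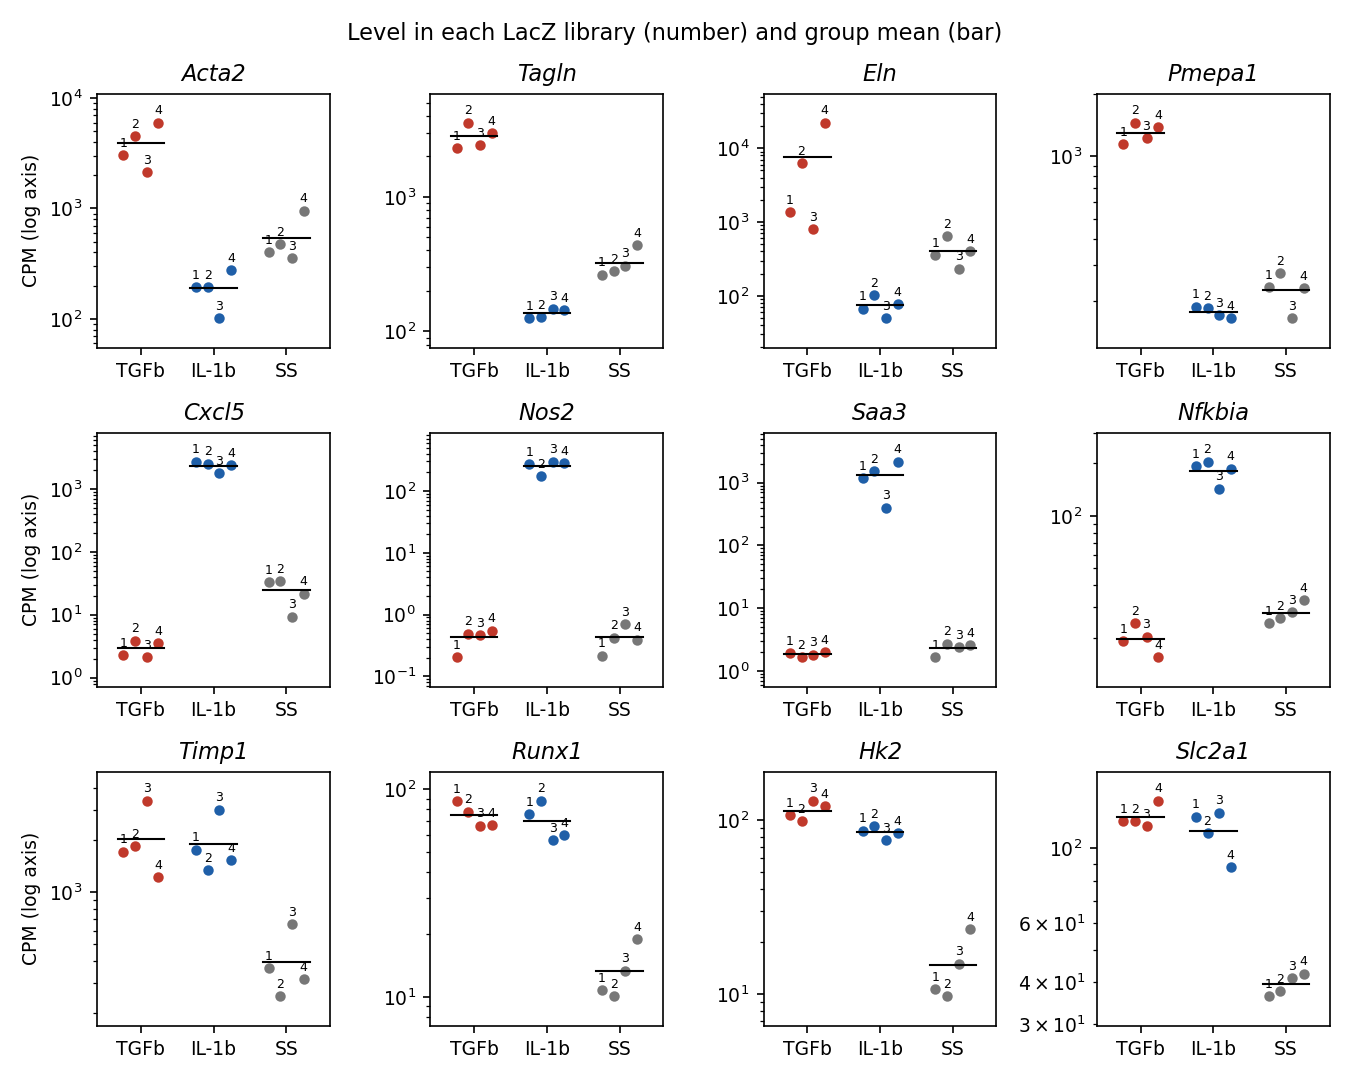
CPM on a log axis in each library for 12 genes, with TGFb on the left, IL-1b in the middle and SS on the right of each panel; points are libraries, numbered 1 to 4, and bars are group means. Acta2, Tagln, Eln and Pmepa1 are highest with TGFb, Cxcl5, Nos2, Saa3 and Nfkbia are highest with IL-1b, and Timp1, Runx1, Hk2 and Slc2a1 are above SS with both.

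Promoter sequences of 4 genes are shown because their products stand for the 2 states and because their windows hold a classical site. The sites are kappaB, the site of NF-kB, and CArG, the site of serum response factor. Cxcl1 and Nfkbia were far higher with IL-1b, and Vcl (vinculin, which anchors actin at focal adhesions) and Myl9 (a regulatory myosin light chain) were higher with TGFb; Vcl and Myl9 were chosen for their matches after values were seen. The same search found 0 CArG matches in the windows of Acta2 and Cnn1 and 0 kappaB matches in that of Icam1, which are not printed in full. It counted only full matches to each motif. Close variants were left out, such as ccctatatgg and ccttgtttgg in Acta2 and tggaaattcc in Icam1. A count of 0 therefore does not show that a gene lacks the site. Each window is the 250 bases before the first listed RefSeq start on GRCm38.p6, printed 5′ to 3′ on the gene's own strand, with the matches to the named motif in capitals. The windows lie at chr5:90890995-90891244 on the plus strand for Cxcl1, chr12:55492648-55492897 on the minus strand for Nfkbia, chr14:20929148-20929397 on the plus strand for Vcl and chr2:156775214-156775463 on the plus strand for Myl9.
Cxcl1, kappaB: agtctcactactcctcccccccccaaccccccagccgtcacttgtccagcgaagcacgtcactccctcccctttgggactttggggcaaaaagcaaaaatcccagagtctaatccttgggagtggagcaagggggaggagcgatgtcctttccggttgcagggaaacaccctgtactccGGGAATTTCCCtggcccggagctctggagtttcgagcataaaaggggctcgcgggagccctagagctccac
Nfkbia, kappaB: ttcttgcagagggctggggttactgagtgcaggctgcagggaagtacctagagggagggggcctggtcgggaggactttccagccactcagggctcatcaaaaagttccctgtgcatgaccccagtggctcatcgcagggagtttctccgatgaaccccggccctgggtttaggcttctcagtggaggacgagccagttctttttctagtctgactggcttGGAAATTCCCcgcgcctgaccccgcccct
Vcl, CArG: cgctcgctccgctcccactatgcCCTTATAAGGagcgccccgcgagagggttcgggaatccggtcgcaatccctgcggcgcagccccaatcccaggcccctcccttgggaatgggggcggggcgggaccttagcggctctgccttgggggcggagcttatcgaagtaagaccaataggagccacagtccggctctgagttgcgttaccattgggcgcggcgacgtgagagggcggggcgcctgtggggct
Myl9, CArG: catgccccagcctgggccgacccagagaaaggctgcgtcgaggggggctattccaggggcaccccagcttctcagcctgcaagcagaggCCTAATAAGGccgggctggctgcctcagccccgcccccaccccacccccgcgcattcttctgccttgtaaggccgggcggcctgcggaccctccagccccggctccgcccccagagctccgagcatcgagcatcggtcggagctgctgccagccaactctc

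In Cxcl1 the capitals cover a pair of overlapping kappaB matches that begin 71 and 70 bases before the start, and in Nfkbia 1 match begins 29 bases before it. The CArG match begins 227 bases before the start in Vcl and 161 before it in Myl9. Searched on both strands, kappaB was found in 8 of the 18 promoters available for the NF-kB list (44.4%) and 6 of 18 for the chemokine list (33.3%), against 4 of 22 for the contractile list (18.2%) and 1894 of all 27025 promoters (7.01%). CArG was found in 5 of 22 contractile promoters (22.7%), in 0 of the 18 NF-kB and 0 of the 18 chemokine promoters, and in 378 of all promoters (1.40%). The Vcl and Myl9 windows hold a kappaB match as well. Among genes at least 8-fold lower with TGFb, 40 of 247 promoters held kappaB (16.2%), and among those at least 8-fold higher 17 of 130 did (13.1%). At 2-fold or more, 135 of 1138 promoters of lower genes held it (11.9%) and 73 of 625 of higher genes (11.7%). Over all tested genes the share was 8.73%. Smad, MCAT and AP-1 motifs were searched as well, given here for the contractile, NF-kB and chemokine lists in that order. Smad was in 6 of 22 (27.3%), 7 of 18 (38.9%) and 5 of 18 (27.8%), against 42.1% of all promoters. MCAT was in 8 of 22 (36.4%), 0 of 18 and 4 of 18 (22.2%), against 12.6%. AP-1 was in 3 of 22 (13.6%), 2 of 18 (11.1%) and 1 of 18 (5.56%), against 4.43%. A match in the window is a description of the letters, and binding was not measured.

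Of the 25 tested genes of the contractile and actin cytoskeleton list, 22 were higher and 0 lower with TGFb (1 lower without TGFb library 4), with a median log2 fold change of 1.79 (all genes: -0.003). Acta2, the defining actin of the myofibroblast, counted 3049.7, 4508, 2124 and 5969 CPM with TGFb, against 193, 195, 101 and 275 CPM with IL-1b. Every TGFb library stood far above the highest IL-1b library, at a fold change of 20.5 (log2 4.36 ± 0.58, adjusted p = 1.24e-06). Tagln, which binds and stiffens actin bundles, counted 2295, 3548, 2434 and 2989 CPM with TGFb, against 125, 128, 147 and 144 CPM with IL-1b, with no overlap (log2 fold change 4.37 ± 0.49, adjusted p = 1.01e-07). Tpm2 (a tropomyosin), Actn1 (alpha-actinin, which crosslinks actin), Myl6 (a myosin light chain), Vcl and Myl9 were also higher without overlap. Tpm2 averaged 451 ± 137 CPM with TGFb and 97.1 ± 17.4 CPM with IL-1b. Actn1 averaged 2211 ± 215 CPM with TGFb and 620.2 ± 66.8 CPM with IL-1b. Myl6 averaged 948 ± 187 CPM with TGFb and 349 ± 25.4 CPM with IL-1b. Against SS, TGFb raised 17 of the 25 and lowered 0, and IL-1b raised 0 and lowered 12 (both share the SS libraries). For Acta2 the log2 fold change over SS was 2.84 ± 0.54 (adjusted p = 0.000106) with TGFb and -1.52 ± 0.51 (adjusted p = 0.0378) with IL-1b. Mylk, the myosin light chain kinase, ran the other way: it counted 3.002, 1.92, 2.19 and 24.9 CPM with TGFb, against 10.1, 19.4, 4.33 and 103 CPM with IL-1b and did not pass (-2.08 ± 1.37, adjusted p = 0.241). It was lower with the replicate block (-2.14 ± 0.38, adjusted p = 4.68e-05). Library 4 was the highest of its group under both factors for Mylk, and the groups overlapped across numbers while each TGFb library was below the IL-1b library of its number.

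**Figure D3:**
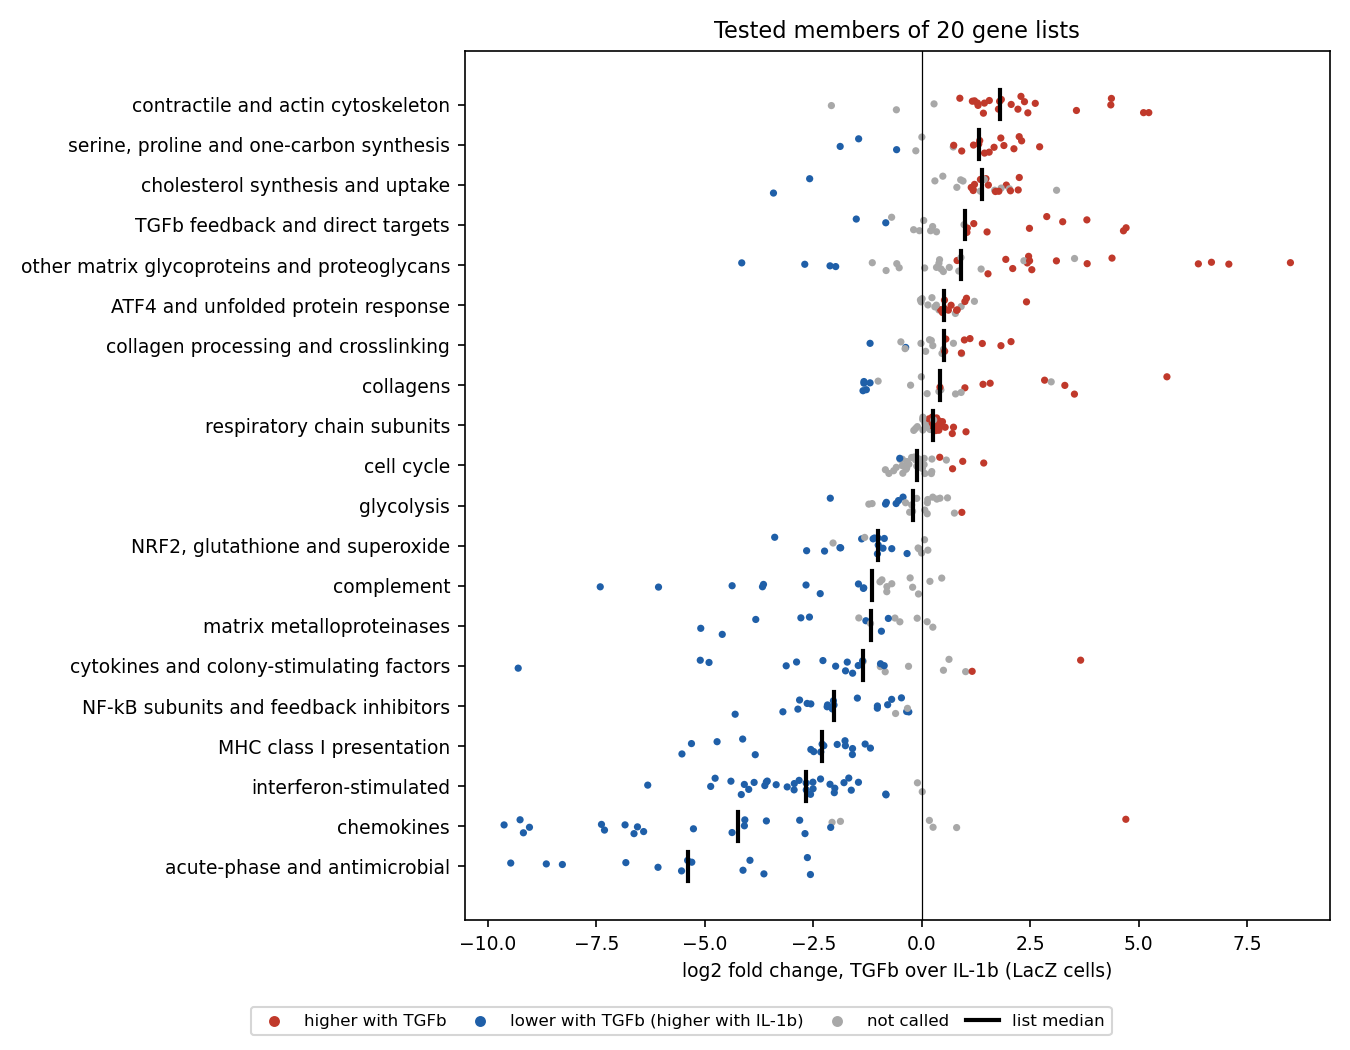
Log2 fold change of TGFb over IL-1b (horizontal axis) for each tested member of 20 gene lists (1 row per list), with called members in colour, other members in grey and the list median as a bar. Most members of the contractile list lie to the right of 0 (median 1.79) and those of the acute-phase, interferon-stimulated and MHC class I lists to the left (medians -5.40, -2.67 and -2.30).

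Of 22 tested collagen genes, 8 were higher and 5 lower with TGFb, against 20.6% and 18.5% of all genes tested, with a median log2 fold change of 0.43. With the replicate block 12 were higher and 6 lower, against 25.9% and 25.3% of all genes tested. Col5a2 and Col11a1, which set the diameter of collagen fibrils, were higher: Col5a2 averaged 9117 ± 1277 CPM with TGFb and 3058 ± 359 CPM with IL-1b (log2 fold change 1.58 ± 0.25, adjusted p = 1.29e-05). Col11a1 counted 796, 702, 425 and 1698 CPM with TGFb, against 98.3, 86.2, 66.5 and 117 CPM with IL-1b. Its groups did not overlap (3.30 ± 0.44, adjusted p = 1.25e-06), and IL-1b was below SS (-2.15 ± 0.42, adjusted p = 0.000514). Col12a1, which coats fibrils, averaged 1345 ± 863 CPM with TGFb and 117 ± 62.9 CPM with IL-1b (3.52 ± 0.59, adjusted p = 3.22e-05). Col7a1, the anchoring-fibril collagen, averaged 79.2 ± 17.2 CPM with TGFb and 11.1 ± 0.485 CPM with IL-1b (2.83 ± 0.25, adjusted p = 2.33e-09). Col8a2 counted 61.8, 86.5, 20.4 and 112 CPM with TGFb, against 1.03, 1.06, 0.879 and 2.57 CPM with IL-1b, again without overlap.

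Several abundant collagens were lower with TGFb. Col3a1, the fibrillar collagen of compliant tissue, counted 11419, 12836, 8099 and 12035 CPM with TGFb, against 30312, 33776, 16403 and 20978 CPM with IL-1b. All 4 TGFb libraries were below all 4 IL-1b libraries (log2 fold change -1.19 ± 0.33, adjusted p = 0.00569). Col6a1, a chain of the microfibril collagen VI, averaged 556 ± 90.9 CPM with TGFb and 1402 ± 396 CPM with IL-1b (-1.33 ± 0.24, adjusted p = 8.95e-05). Its partner chain Col6a2 averaged 349 ± 73.3 CPM with TGFb and 846 ± 294 CPM with IL-1b (-1.28 ± 0.28, adjusted p = 0.000661). Col18a1, a basement membrane collagen, averaged 154 ± 48.1 CPM with TGFb and 394 ± 90.2 CPM with IL-1b (-1.36 ± 0.29, adjusted p = 0.000548). Col1a1, the main chain of type I collagen, counted 19239, 19237, 15587 and 24802 CPM with TGFb, against 14346, 13547, 10674 and 7434 CPM with IL-1b. The groups did not overlap, but the difference missed the threshold (0.78 ± 0.34, adjusted p = 0.0706). Blocking on the number brought it past the threshold (0.89 ± 0.27, adjusted p = 0.00793). Against SS, Col1a1 stood at 0.99 ± 0.34 under TGFb (adjusted p = 0.019) and 0.21 ± 0.34 under IL-1b (adjusted p = 0.727). Col4a1, a basement membrane collagen, counted 6142, 3815, 5286 and 2358 CPM with TGFb, against 5360.0, 4404, 5488 and 2473 CPM with IL-1b. The groups overlapped throughout, with a log2 fold change of -0.01 ± 0.49, adjusted p = 0.988.

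Among the 21 genes that process and crosslink collagen, 8 were higher and 2 lower with TGFb, against 20.6% and 18.5% of all genes tested. The block gave 12 and 3, against 25.9% and 25.3% of all genes tested. There was 1 lower without TGFb library 1, 2 or 3 or IL-1b library 1, 2 or 3. The median was 0.50. The lysyl oxidases, which join collagen and elastin chains outside the cell, were prominent. Lox counted 7055, 6005, 6760.2 and 9872 CPM with TGFb, against 2506, 2014, 2329.8 and 1531 CPM with IL-1b. Loxl3 averaged 583 ± 143 CPM with TGFb and 222 ± 44.96 CPM with IL-1b. Loxl4 averaged 167 ± 60.5 CPM with TGFb and 40.1 ± 13.3 CPM with IL-1b. All 3 were higher without overlap, with log2 fold changes of 1.82 ± 0.37, adjusted p = 0.000259 for Lox, 1.40 ± 0.25, adjusted p = 6.78e-05 for Loxl3 and 2.06 ± 0.44, adjusted p = 0.000514 for Loxl4. Plod2, which hydroxylates the lysines that crosslinks use, averaged 817 ± 95.3 CPM with TGFb and 378 ± 78.9 CPM with IL-1b (1.11 ± 0.24, adjusted p = 0.000498). Against SS it was lower with IL-1b (-0.67 ± 0.23, adjusted p = 0.0461) and did not pass with TGFb (0.45 ± 0.23, adjusted p = 0.122). Bmp1, the protease that trims procollagen, was a little lower, at 466 ± 34.2 CPM with TGFb and 603 ± 30.03 CPM with IL-1b (-0.37 ± 0.11, adjusted p = 0.0105).

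Of 35 other matrix genes, 15 were higher and 4 lower with TGFb (20 and 6 with the block), with a median log2 fold change of 0.90. Ccn4 counted 559.5, 508, 376 and 513 CPM with TGFb, against 20.3, 22.5, 13.2 and 37.6 CPM with IL-1b, with no overlap (4.39 ± 0.41, adjusted p = 4.33e-09). Postn, the matricellular periostin of activated cardiac fibroblasts, counted 5023, 4543, 2825 and 3807 CPM with TGFb, against 1469.7, 1156, 1305 and 301 CPM with IL-1b. The TGFb libraries were all higher, and the IL-1b library of number 4 was far below the other 3 (log2 fold change 1.94 ± 0.60, adjusted p = 0.0117). Thbs4, a thrombospondin, counted 4.17, 5.66, 3.999 and 3.83 CPM with TGFb, against 0.0395, 0.0461, 0.0703 and 0.0368 CPM with IL-1b, close to absent with IL-1b (6.38 ± 0.80, adjusted p = 5.21e-07). Acan, the cartilage proteoglycan aggrecan, counted 10.5, 45.3, 1.43 and 119 CPM with TGFb, against 0.0791, 0.184, 0.141 and 0.0736 CPM with IL-1b. Its TGFb libraries spread over a wide range, from number 3, the lowest, to number 4, the highest, and none reached down to the IL-1b libraries (8.50 ± 1.24, adjusted p = 5.37e-06, 7.29 without TGFb library 4).

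The 4 lower matrix genes were the small proteoglycans Dcn (decorin, which binds TGFb) and Lum (lumican), Tnxb (tenascin-X) and Fbln1 (fibulin-1). Dcn counted 486, 518, 533 and 446 CPM with TGFb, against 3675, 3429, 3285 and 2477 CPM with IL-1b. The log2 fold change was -2.70 ± 0.31, adjusted p = 1.38e-07, and against SS Dcn was lower with TGFb (-1.07 ± 0.30, adjusted p = 0.00411) and higher with IL-1b (1.62 ± 0.30, adjusted p = 0.000287). Tnxb averaged 4.98 ± 1.22 CPM with TGFb and 88.6 ± 43.01 CPM with IL-1b (-4.15 ± 0.47, adjusted p = 9.21e-08). Fn1, the fibronectin gene, counted 22546, 11566, 15959 and 13131 CPM with TGFb, against 13334, 11121, 17718 and 5877 CPM with IL-1b, with overlap, and did not pass (0.40 ± 0.43, adjusted p = 0.497). With the replicate block it was higher (0.52 ± 0.19, adjusted p = 0.0266). Bgn (biglycan) averaged 8764 ± 569.7 CPM with TGFb and 8371 ± 1761 CPM with IL-1b and did not pass (0.07 ± 0.30, adjusted p = 0.888).

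Of 16 ligands, receptors and Smads of the TGFb pathway, 4 were higher and 4 lower with TGFb, shares near those of all genes tested (20.6% higher and 18.5% lower), with a median of 0.11. The ligand gene Tgfb1 counted 161, 169, 178 and 120.5 CPM with TGFb, against 72.7, 61.5, 85.5 and 55.9 CPM with IL-1b, without overlap (1.19 ± 0.21, adjusted p = 6.46e-05). Tgfb3 averaged 257 ± 107 CPM with TGFb and 84.8 ± 31.1 CPM with IL-1b (1.60 ± 0.34, adjusted p = 0.000456). Inhba, which encodes a subunit of activin, averaged 603 ± 184 CPM with TGFb and 172 ± 53.1 CPM with IL-1b (1.81 ± 0.36, adjusted p = 0.00024). The co-receptor Tgfbr3 (betaglycan) counted 6.05, 4.43, 6.06 and 10.9 CPM with TGFb, against 94.3, 102, 103 and 222 CPM with IL-1b. Every TGFb library was below every IL-1b library, at a log2 fold change of -4.24 ± 0.95, adjusted p = 0.000871. Smad3, the signal carrier, averaged 56.7 ± 5.34 CPM with TGFb and 145 ± 19.7 CPM with IL-1b and was lower (-1.36 ± 0.21, adjusted p = 9.45e-06). Smad2 (0.13 ± 0.09, adjusted p = 0.273) and Smad4 (0.0016 ± 0.06, adjusted p = 0.985) did not pass, though Smad2 was higher without number 4 (0.20, adjusted p = 0.0263). The signalling receptor genes Tgfbr1 and Tgfbr2 did not pass either, at 0.20 ± 0.17, adjusted p = 0.382 for Tgfbr1 and -0.25 ± 0.13, adjusted p = 0.144 for Tgfbr2.

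Of 20 feedback genes and direct targets, 10 were higher and 2 lower (12 and 2 with the block, and 1 lower without TGFb library 1 or 3), with a median of 1.01. Pmepa1, a membrane protein that dampens Smad signalling, counted 1144, 1454, 1224 and 1387 CPM with TGFb, against 187, 184, 170.4 and 165 CPM with IL-1b. Its groups were tight and far apart (2.88 ± 0.16, adjusted p = 1.36e-13). Skil, which encodes the Smad co-repressor SnoN, averaged 171 ± 14.8 CPM with TGFb and 74.7 ± 8.68 CPM with IL-1b (1.20 ± 0.16, adjusted p = 9.56e-07). It was above SS with IL-1b as well (0.66 ± 0.15, adjusted p = 0.00308). Nox4, an oxidase that makes hydrogen peroxide in myofibroblasts, counted 74.9, 57.4, 122 and 63.01 CPM with TGFb, against 4.63, 4.56, 5.56 and 7.87 CPM with IL-1b (3.81 ± 0.34, adjusted p = 1.93e-09). Against SS, Nox4 was higher with TGFb (1.85 ± 0.31) and lower with IL-1b (-1.96 ± 0.31). Il11, a cytokine that drives fibroblast activation, counted 26.9, 31.9, 81.8 and 52.04 CPM with TGFb, against 1.27, 1.11, 3.798 and 1.43 CPM with IL-1b (4.65 ± 0.61, adjusted p = 1.09e-06). The 2 lower genes were Id2 and Id3, inhibitors of helix-loop-helix factors that bone morphogenetic proteins induce. Id2 stood at -1.51 ± 0.28, adjusted p = 0.000126, and Id3 at -0.83 ± 0.28, adjusted p = 0.0218, -0.76, adjusted p = 0.062 without TGFb library 1, -0.69, adjusted p = 0.0793 without TGFb library 3.

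Of 18 integrin genes, 5 were higher and 1 lower with TGFb (8 and 2 with the block, and 2 lower without TGFb library 4). Among all genes tested 20.6% were higher and 18.5% lower (25.9% and 25.3% with the block). Itga5, the fibronectin receptor chain, counted 875, 749, 1111 and 905 CPM with TGFb, against 227, 195, 233 and 176 CPM with IL-1b, without overlap (2.13 ± 0.23, adjusted p = 4.95e-08). Itgb5, a chain of a vitronectin receptor, averaged 1688 ± 230.4 CPM with TGFb and 515 ± 90.2 CPM with IL-1b (1.71 ± 0.28, adjusted p = 1.84e-05). Itga9 averaged 190.0 ± 50.5 CPM with TGFb and 42.95 ± 3.25 CPM with IL-1b (2.14 ± 0.44, adjusted p = 0.000378). Itga4 averaged 32.5 ± 8.27 CPM with TGFb and 6.58 ± 1.02 CPM with IL-1b (2.30 ± 0.50, adjusted p = 0.000658). Itgb8, whose product can free latent TGFb, was the lower one, at 21.6 ± 5.95 CPM with TGFb and 44.8 ± 6.91 CPM with IL-1b (-1.05 ± 0.22, adjusted p = 0.000419).

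The NF-kB list was lower with TGFb almost throughout: of 21 subunits and feedback inhibitors 19 were lower and 0 higher, with a median log2 fold change of -2.02. Nfkbia, which encodes the inhibitor IkB-alpha and is itself an NF-kB target, counted 19.2, 24.2, 20.2 and 15.4 CPM with TGFb, against 193, 204, 143 and 186 CPM with IL-1b. All TGFb libraries were far below all IL-1b libraries (-3.20 ± 0.16, adjusted p = 1.91e-14). Zc3h12a, an RNase that degrades cytokine messages, counted 10.02, 7.97, 11.8 and 6.77 CPM with TGFb, against 212, 194, 167 and 149 CPM with IL-1b (-4.30 ± 0.24, adjusted p = 1.36e-13). Tnip1, a partner of the ubiquitin editor A20, averaged 49.8 ± 3.72 CPM with TGFb and 225 ± 35.1 CPM with IL-1b. Birc2, a ubiquitin ligase of the same pathway, averaged 22.9 ± 1.65 CPM with TGFb and 93.9 ± 20.4 CPM with IL-1b. Its relative Birc3 averaged 12.5 ± 1.11 CPM with TGFb and 77.9 ± 13.4 CPM with IL-1b. None of these groups overlapped. Against SS, IL-1b raised 16 of the 21 and lowered 0, and TGFb raised 4 and lowered 4.

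Of 20 tested genes of the IL-1 family and its signalling, 10 were lower and 2 higher with TGFb (13 and 2 with the block; 1 higher without TGFb library 1 or 3 or IL-1b library 1, 2 or 4). The receptor gene Il1r1 counted 45.9, 47.7, 42.4 and 41.2 CPM with TGFb, against 303, 298, 225 and 269.7 CPM with IL-1b. It was lower with TGFb than in SS (-1.57 ± 0.17, adjusted p = 5.06e-08) and higher with IL-1b than in SS (1.06 ± 0.17, adjusted p = 4.36e-05), with a direct log2 fold change of -2.63 ± 0.18, adjusted p = 8.3e-12. Irak3, a brake on the receptor complex, averaged 7.11 ± 2.67 CPM with TGFb and 49.2 ± 15.8 CPM with IL-1b (-2.79 ± 0.25, adjusted p = 2.66e-09). Map3k8, a kinase of the MAP kinase path, averaged 3.27 ± 0.2196 CPM with TGFb and 26.4 ± 3.56 CPM with IL-1b (-3.01 ± 0.19, adjusted p = 3.24e-12). Il33, an alarmin of the family, averaged 2.22 ± 1.13 CPM with TGFb and 60.01 ± 27.7 CPM with IL-1b (-4.76 ± 0.87, adjusted p = 9.74e-05). In all 3 every TGFb library was below every IL-1b library. Irak2, a kinase of the receptor complex, went the other way and was higher with TGFb, at 32.9, 35.5, 34.98 and 41.3 CPM with TGFb, against 13.4, 13.3, 15.4 and 14.2 CPM with IL-1b (1.36 ± 0.11, adjusted p = 1.48e-10). Map3k7, which encodes TAK1, counted 137, 108, 143 and 119.6 CPM with TGFb, against 122, 128, 138 and 109 CPM with IL-1b, with overlap and a log2 fold change of 0.03 ± 0.13, adjusted p = 0.879. Il1a and Il1b were too low to be tested.

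Of 24 tested chemokine genes, 18 were lower and 1 higher with TGFb (20 and 2 with the block), with a median log2 fold change of -4.23. It was -4.11 when Ccl11 and Cxcl3, which had no count in any TGFb library, are set at their floor of 3 counts per library. Cxcl1, a neutrophil attractant, counted 1.32, 2.51, 1.22 and 1.98 CPM with TGFb, against 1288, 1201, 1266 and 565 CPM with IL-1b (-9.26 ± 0.57, adjusted p = 2.21e-12). Ccl2, the main monocyte attractant, counted 19.03, 17.4, 22.3 and 10.5 CPM with TGFb, against 1916, 1689, 1764 and 1146 CPM with IL-1b (-6.56 ± 0.52, adjusted p = 2.41e-10). Ccl7, its neighbour in the chemokine cluster of chromosome 11, averaged 8.86 ± 1.27 CPM with TGFb and 755 ± 102 CPM with IL-1b (-6.41 ± 0.28, adjusted p = 5.78e-15). Ccl5, which attracts T cells, averaged 0.551 ± 0.242 CPM with TGFb and 62.9 ± 7.26 CPM with IL-1b (-6.84 ± 0.48, adjusted p = 2.78e-11). None of the 4 had a TGFb library near the IL-1b libraries. For Ccl2 the log2 fold change over SS was -0.31 ± 0.41 (adjusted p = 0.562) with TGFb and 6.25 ± 0.51 (adjusted p = 1.16e-09) with IL-1b. The exception was Ccl17, a T cell attractant that counted 47.5, 53.5, 62.4 and 11.98 CPM with TGFb, against 1.74, 0.553, 3.48 and 0.883 CPM with IL-1b. Every TGFb library was above every IL-1b library, though number 4 was the lowest of the TGFb group (4.70 ± 0.88, adjusted p = 0.000126, 5.34 without IL-1b library 3). Against SS Ccl17 was higher with TGFb (6.24 ± 0.97, adjusted p = 9.19e-06). Cxcl12, a homing chemokine of stromal cells, counted 112, 288, 123 and 1323 CPM with TGFb, against 1557, 2220.1, 573 and 2423 CPM with IL-1b and did not pass (-1.88 ± 0.98, adjusted p = 0.133, -3.28, adjusted p = 0.0196 without TGFb library 4). It was lower with the block (-2.53 ± 0.39, adjusted p = 9.46e-06).

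Leukocyte markers ran with the replicate number, beside these results. The summed level of the 13 leukocyte markers was 167, 78.5, 325 and 35.7 CPM in TGFb libraries 1 to 4, 347, 150, 604 and 80.6 CPM in IL-1b libraries 1 to 4, and 320, 131, 476 and 62.0 CPM in SS libraries 1 to 4. Of the 11 tested, 1 was lower (9 with the block, where 1 was higher). That 1 was Mrc1, the macrophage mannose receptor, at 0.5596, 0.0492, 0.631 and 0.252 CPM with TGFb, against 12.5, 5.94, 31.02 and 1.69 CPM with IL-1b. Cd3e, a T cell marker, was at 0 in all 8 libraries. The part of leukocytes in the chemokine, cytokine and complement results was not tested. Fewer such cells and less RNA per cell cannot be told apart in bulk RNA.

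Of 23 tested cytokine, colony-stimulating factor and receptor genes, 14 were lower and 2 higher with TGFb, with a median of -1.37. With the block 17 were lower and 3 higher, and without IL-1b library 3 there were 4 higher. Il6, a cytokine that both factors can induce, counted 35.3, 52.03, 30.7 and 34.97 CPM with TGFb, against 134, 113, 140.0 and 116 CPM with IL-1b. The groups did not overlap (-1.72 ± 0.51, adjusted p = 0.00904). Both were above SS, where Il6 averaged 3.05 ± 1.38 CPM (3.65 ± 0.57, adjusted p = 9.87e-06 with TGFb and 5.37 ± 0.61, adjusted p = 4.05e-07 with IL-1b). Csf3, the granulocyte factor, was at 0, 0, 0 and 0.04204 CPM with TGFb and 9.17, 8.25, 6.61 and 16.4 CPM with IL-1b. Receptor genes of the interleukin-6 family were lower as well. Osmr, the oncostatin M receptor, averaged 196 ± 29.4 CPM with TGFb and 665 ± 49.97 CPM with IL-1b (-1.76 ± 0.17, adjusted p = 1.23e-08). Lifr, the receptor for leukaemia inhibitory factor, averaged 8.25 ± 2.32 CPM with TGFb and 61.00 ± 22.8 CPM with IL-1b (-2.89 ± 0.26, adjusted p = 2.37e-09). Tnfrsf11b, the decoy receptor osteoprotegerin, was higher with TGFb, at 347, 365, 232 and 195 CPM with TGFb, against 37.2, 24.1, 20.9 and 7.87 CPM with IL-1b (3.66 ± 0.85, adjusted p = 0.00116). Lif itself counted 103, 78.7, 178 and 73.3 CPM with TGFb, against 51.6, 42.6, 73.3 and 47.8 CPM with IL-1b, without overlap. It missed the threshold (1.01 ± 0.41, adjusted p = 0.0514, 1.17, adjusted p = 0.0431 without IL-1b library 3, 1.14, adjusted p = 0.0465 without TGFb library 2, 1.16, adjusted p = 0.0379 without TGFb library 4) and was higher with the block (0.95 ± 0.31, adjusted p = 0.014).

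Of 12 tested adhesion genes that hold leukocytes to vessel walls, 7 were lower and 2 higher with TGFb (1 higher without TGFb library 4 or IL-1b library 1 or 2). Vcam1 counted 252, 318, 284 and 233 CPM with TGFb, against 1648, 1994, 1197 and 2160.5 CPM with IL-1b (-2.69 ± 0.24, adjusted p = 2.43e-09). Icam1 averaged 43.8 ± 10.6 CPM with TGFb and 331 ± 67.95 CPM with IL-1b (-2.92 ± 0.24, adjusted p = 5.07e-10). The selectin gene Selp, best known from endothelium, averaged 6.12 ± 1.58 CPM with TGFb and 329 ± 124 CPM with IL-1b (-5.75 ± 0.69, adjusted p = 2.87e-07). Its relative Sele averaged 0.945 ± 0.8300 CPM with TGFb and 25.1 ± 7.87 CPM with IL-1b (-4.71 ± 0.67, adjusted p = 3.52e-06, -5.49 without TGFb library 3). Summed endothelial markers were 38.1 to 43.7 CPM with TGFb, 22.3 to 55.5 CPM with IL-1b and 51.6 to 85.8 CPM in SS. Of these 10 markers 5 were under 1 CPM in all 8 TGFb and IL-1b libraries, and Cldn5 was at 0. The part of endothelial cells in the selectin results was not tested.

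All 13 tested acute-phase and antimicrobial genes were lower with TGFb, with a median log2 fold change of -5.40. Against SS, IL-1b raised 11 of the 13 and TGFb raised 0 and lowered 4. Lcn2 counted 1.53, 3.74, 2.99 and 6.64 CPM with TGFb, against 1604, 1448, 1456 and 1542 CPM with IL-1b (-8.66 ± 0.73, adjusted p = 9.66e-10). Steap4 counted 2.49, 4.38, 1.81 and 3.91 CPM with TGFb, against 1108, 1169, 471 and 1185 CPM with IL-1b (-8.29 ± 0.45, adjusted p = 1.4e-13). Cp, the copper oxidase ceruloplasmin, averaged 59.3 ± 8.98 CPM with TGFb and 739 ± 80.1 CPM with IL-1b (-3.64 ± 0.21, adjusted p = 6.18e-13). Tlr2, the receptor for bacterial lipoproteins, averaged 3.69 ± 0.697 CPM with TGFb and 146 ± 31.98 CPM with IL-1b (-5.30 ± 0.25, adjusted p = 1.69e-14). In all 4 genes the groups lay apart. Reads of Saa3 could in part be shared with other serum amyloid genes.

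Of 20 tested complement genes, 10 were lower and 0 higher with TGFb (15 and 1 with the block; 1 higher without IL-1b library 3). C3, the hub of the cascade, counted 71.4, 83.98, 63.8 and 133 CPM with TGFb, against 4932, 6856, 2404 and 9456 CPM with IL-1b. In both groups number 4 was the highest and number 3 the lowest, and the groups lay far apart (-6.07 ± 0.74, adjusted p = 3.77e-07). Cfb, which forms the C3 convertase, counted 0.0509, 0.197, 0.126 and 0.504 CPM with TGFb, against 26.8, 55.4, 9.04 and 65.6 CPM with IL-1b (-7.41 ± 1.00, adjusted p = 1.52e-06, -8.24 without TGFb library 4). Serping1, the C1 inhibitor, averaged 266 ± 56.05 CPM with TGFb and 1351 ± 308 CPM with IL-1b (-2.34 ± 0.20, adjusted p = 6.11e-10). C1ra averaged 32.4 ± 2.97 CPM with TGFb and 414 ± 151 CPM with IL-1b (-3.67 ± 0.41, adjusted p = 7.09e-08). C2 averaged 1.04 ± 0.366 CPM with TGFb and 13.2 ± 6.81 CPM with IL-1b (-3.65 ± 0.40, adjusted p = 6.26e-08). Each of these had its TGFb libraries below its IL-1b libraries. C1ra has a near-identical neighbour, so its reads may be shared.

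Interferon-stimulated genes were lower with TGFb in 31 of 33 cases and higher in 0, with a median of -2.67. Gbp2, a GTPase that attacks intracellular microbes, counted 14.9, 20.9, 6.44 and 18.8 CPM with TGFb, against 371, 509, 257 and 522 CPM with IL-1b (-4.76 ± 0.47, adjusted p = 1.25e-08). Its relative Gbp5 averaged 0.949 ± 0.644 CPM with TGFb and 75.1 ± 32.4 CPM with IL-1b (-6.32 ± 0.52, adjusted p = 6.07e-10). Irf1, a transcription factor that NF-kB and interferon both induce, averaged 17.3 ± 2.19 CPM with TGFb and 87.1 ± 12.3 CPM with IL-1b (-2.33 ± 0.20, adjusted p = 1.53e-09). Ifit2 counted 14.5, 13.3, 8.59 and 12.6 CPM with TGFb, against 72.8, 87.1, 49.6 and 69.3 CPM with IL-1b. It was lower with TGFb than in SS (-2.03 ± 0.22, adjusted p = 5.7e-08). With IL-1b it did not pass against SS (0.48 ± 0.21, adjusted p = 0.12). Over the list, TGFb lowered 23 and raised 2 against SS, and IL-1b raised 29 and lowered 0. Isg20 and Irgm1 were the 2 that did not pass, at 0.01 ± 0.16, adjusted p = 0.966 for Isg20 and -0.10 ± 0.22, adjusted p = 0.759 for Irgm1. Both were above SS with either factor.

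All 17 tested MHC class I presentation genes were lower with TGFb, with a median of -2.30. The peptide transporter gene Tap2 counted 34.7, 45.98, 32.8 and 31.4 CPM with TGFb, against 135, 147, 100.2 and 110.1 CPM with IL-1b (-1.76 ± 0.13, adjusted p = 4.92e-11). Psmb8, an immunoproteasome subunit, averaged 2.42 ± 1.11 CPM with TGFb and 63.7 ± 16.1 CPM with IL-1b (-4.72 ± 0.33, adjusted p = 2.82e-11). Tapbp, the loading factor tapasin, averaged 136 ± 23.2 CPM with TGFb and 667 ± 130.1 CPM with IL-1b (-2.30 ± 0.19, adjusted p = 4.83e-10). Erap1, which trims peptides, averaged 23.2 ± 1.76 CPM with TGFb and 89.8 ± 7.92 CPM with IL-1b (-1.95 ± 0.14, adjusted p = 2.85e-11). No TGFb library of these genes reached the lowest IL-1b library. H2-Q4 counted 5.14, 10.4, 4.17 and 8.36 CPM with TGFb, against 324, 404, 201 and 186 CPM with IL-1b (-5.31 ± 0.42, adjusted p = 2.38e-10). Class I heavy chain genes share much of their sequence, so reads may be split among them. Against SS, IL-1b raised 17 of 17 and TGFb lowered 12.

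**Figure D4:**
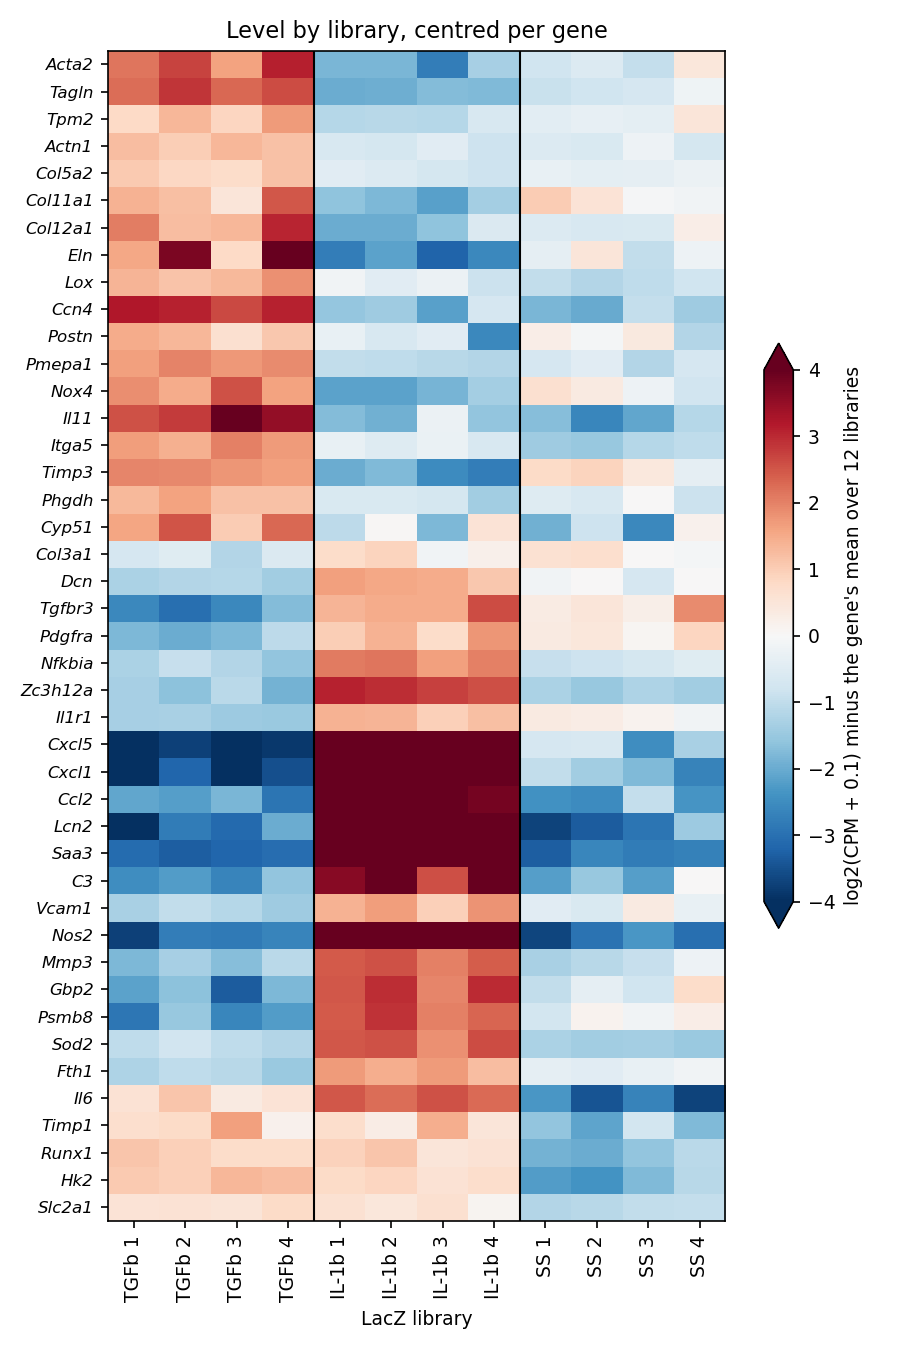
Log2 of CPM + 0.1 for 43 genes (rows) in the 4 TGFb, 4 IL-1b and 4 SS libraries (columns, numbered 1 to 4), each row centred on the mean of its 12 values and coloured from -4 to 4. The contractile and matrix genes at the top are high with TGFb, the NF-kB, chemokine, interferon and MHC genes in the middle are high with IL-1b, and the genes at the bottom are high with both.

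Of 21 tested genes of nitric oxide and prostaglandin synthesis, 6 were lower and 3 higher with TGFb, against 18.5% and 20.6% of all genes tested. With the block 9 were lower and 3 higher, against 25.3% and 25.9% of all genes tested. Slc7a2, which imports the arginine that nitric oxide is made from, counted 56.8, 37.1, 36.5 and 43.4 CPM with TGFb, against 819, 870.2, 883 and 849 CPM with IL-1b (-4.30 ± 0.23, adjusted p = 1.08e-13). Gch1, which makes the cofactor tetrahydrobiopterin, averaged 3.89 ± 1.22 CPM with TGFb and 18.2 ± 1.12 CPM with IL-1b (-2.23 ± 0.40, adjusted p = 7.81e-05). It was above SS with TGFb too (1.59 ± 0.41, adjusted p = 0.00234). Ptgs2, the inducible cyclooxygenase, was higher with TGFb, at 144, 132, 295 and 705 CPM with TGFb, against 33.6, 32.7, 49.5 and 84.3 CPM with IL-1b. No library of the groups overlapped (2.67 ± 0.66, adjusted p = 0.00194, 1.93 without TGFb library 4). Both groups were above SS, where it averaged 12.9 ± 14.8 CPM. Ptges, the inducible prostaglandin E synthase, counted 1.07, 3.397, 1.26 and 12.7 CPM with TGFb, against 19.2, 30.8, 23.5 and 54.99 CPM with IL-1b, without overlap. It missed the threshold (-2.80 ± 1.21, adjusted p = 0.0681, -4.07, adjusted p = 0.0269 without TGFb library 4) and was lower with the block (-3.59 ± 0.47, adjusted p = 8.98e-07). Ptges2 was lower (-1.68 ± 0.09, adjusted p = 1.36e-13) and Ptges3 higher (0.43 ± 0.10, adjusted p = 0.00101).

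Of 15 tested matrix metalloproteinase genes, 8 were lower and 0 higher with TGFb (11 and 0 with the block). Mmp3, stromelysin, counted 216, 299, 228 and 351 CPM with TGFb, against 4077, 4408, 3045 and 3986 CPM with IL-1b (-3.83 ± 0.33, adjusted p = 1.08e-09). Mmp13, a collagenase, averaged 1.13 ± 0.5698 CPM with TGFb and 7.86 ± 4.08 CPM with IL-1b (-2.79 ± 0.53, adjusted p = 0.000148). Mmp9, a gelatinase, averaged 0.822 ± 0.307 CPM with TGFb and 4.98 ± 3.53 CPM with IL-1b (-2.59 ± 0.68, adjusted p = 0.00339). Mmp12, the elastase of macrophages, averaged 0.292 ± 0.369 CPM with TGFb and 10.4 ± 7.02 CPM with IL-1b (-5.10 ± 0.98, adjusted p = 0.000173, -6.51 without TGFb library 3). Mmp3 was by far the most abundant of these with either factor. Inhibitors and ADAMTS proteases were split, with 6 of 17 higher and 5 lower (7 and 7 with the block, and 3 higher without IL-1b library 4). Among all genes tested 20.6% were higher and 18.5% lower (25.9% and 25.3% with the block). Timp3, a matrix-bound inhibitor, counted 6258, 6125, 5401 and 5041 CPM with TGFb, against 403, 476, 279 and 234 CPM with IL-1b (4.03 ± 0.55, adjusted p = 1.74e-06). Against SS it was higher with TGFb (1.32 ± 0.49, adjusted p = 0.0298) and lower with IL-1b (-2.72 ± 0.52, adjusted p = 0.000411). Timp1 counted 1717, 1840.0, 3375 and 1226 CPM with TGFb, against 1766, 1346, 3007 and 1534 CPM with IL-1b, with overlap (0.09 ± 0.43, adjusted p = 0.889). Both groups were above SS, where it averaged 396 ± 178 CPM. Adamts12 was higher with TGFb (2.78 ± 0.43, adjusted p = 1.08e-05). The aggrecanases Adamts4, Adamts5 and Adamts9 were lower (-1.18 ± 0.37, adjusted p = 0.0122 for Adamts4, -1.61 ± 0.42, adjusted p = 0.00324 for Adamts5 and -3.95 ± 0.37, adjusted p = 5.47e-09 for Adamts9).

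Of 9 tested plasminogen system genes, 4 were lower and 1 higher (4 and 3 with the block). Among all genes tested 18.5% were lower and 20.6% higher (25.3% and 25.9% with the block). Plat, tissue plasminogen activator, counted 54.8, 42.04, 66.9 and 42.4 CPM with TGFb, against 163, 155, 205 and 118 CPM with IL-1b (-1.64 ± 0.22, adjusted p = 1.82e-06). Serpinb2, an inhibitor of urokinase, averaged 1.36 ± 1.49 CPM with TGFb and 45.00 ± 14.02 CPM with IL-1b (-5.03 ± 0.68, adjusted p = 1.52e-06, -6.17 without TGFb library 3). Plaur, the urokinase receptor, was higher, at 35.6 ± 9.38 CPM with TGFb and 13.98 ± 7.03 CPM with IL-1b (1.35 ± 0.34, adjusted p = 0.00273), with both groups above SS.

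Against SS, TGFb raised 12 of 23 tested glycolysis genes and IL-1b raised 16. Directly, 6 were lower and 1 higher with TGFb (9 and 2 with the block), with a median of -0.21. Among all genes tested 18.5% were lower and 20.6% higher (25.3% and 25.9% with the block). The glycolysis counts moved to 13 lower without the libraries of number 4, and to 0 higher without TGFb library 1, 2, 3 or 4 or IL-1b library 2, 3 or 4. Hk2, the inducible hexokinase, counted 106, 98.6, 129 and 119 CPM with TGFb, against 86.5, 91.9, 76.2 and 83.7 CPM with IL-1b, without overlap, and did not pass (0.42 ± 0.28, adjusted p = 0.242). Slc2a1, the glucose transporter GLUT1, counted 121, 121, 116 and 138 CPM with TGFb, against 124, 111, 128 and 88.1 CPM with IL-1b, with overlap (0.14 ± 0.13, adjusted p = 0.433). Both were above SS under either factor, where Hk2 averaged 14.7 ± 6.28 CPM and Slc2a1 39.4 ± 2.86 CPM. Pkm, the floxed gene, counted 1364, 1548, 1492 and 1748 CPM with TGFb, against 2290.3, 1953, 2407 and 1321 CPM with IL-1b and did not pass (-0.37 ± 0.23, adjusted p = 0.197), though it was lower without the libraries of number 4 (-0.59, adjusted p = 0.0272). Its log2 fold change over SS was 0.97 ± 0.23 (adjusted p = 0.00103) with TGFb and 1.34 ± 0.23 (adjusted p = 0.000122) with IL-1b. These gene-level counts do not separate its PKM1 and PKM2 forms. Ldha, which turns pyruvate into lactate, did not pass either (-0.28 ± 0.28, adjusted p = 0.453) and was lower without number 4 (-0.59, adjusted p = 0.0303). The largest glycolysis difference was in Slc16a1, a lactate transporter, at 18.1, 21.3, 22.3 and 18.7 CPM with TGFb, against 92.4, 102, 49.1 and 104 CPM with IL-1b (-2.11 ± 0.19, adjusted p = 2.37e-09).

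Genes of serine, proline and one-carbon synthesis were higher with TGFb: 14 of 20 were higher and 3 lower, with a median of 1.32. Phgdh, the first enzyme of serine synthesis, counted 275, 343, 252 and 253 CPM with TGFb, against 73.6, 73.2, 68.5 and 42.5 CPM with IL-1b (2.12 ± 0.33, adjusted p = 1.39e-05). Psph, the last step of the same path, averaged 93.7 ± 27.5 CPM with TGFb and 18.99 ± 5.22 CPM with IL-1b (2.30 ± 0.39, adjusted p = 3.75e-05). Pycr1 and Aldh18a1 make proline, an amino acid that collagen is rich in. Pycr1 averaged 113 ± 7.604 CPM with TGFb and 23.7 ± 6.44 CPM with IL-1b (2.25 ± 0.32, adjusted p = 3.07e-06). Aldh18a1 averaged 265 ± 23.8 CPM with TGFb and 90.4 ± 23.01 CPM with IL-1b (1.55 ± 0.27, adjusted p = 4.6e-05). Glul, glutamine synthetase, was lower (-1.88 ± 0.21, adjusted p = 6.36e-08). Against SS, TGFb raised 14 of the 20 and IL-1b raised 3.

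In the TCA cycle and pyruvate entry list, 15 of 33 were higher and 5 lower with TGFb. In the respiratory chain list 18 of 30 were higher and 0 lower. Over all genes tested the shares were 20.6% higher and 18.5% lower. The amounts were small (medians 0.08 and 0.26). With scaling by total counts alone these medians were -0.05 and 0.13, so the first changed sign, and 8 members of each list were higher. Single libraries moved the lower counts, with 3 lower without TGFb library 3 or IL-1b library 1 in the first list and 1 lower without TGFb library 2 in the second. Idh3a, an isocitrate dehydrogenase subunit, averaged 97.02 ± 15.3 CPM with TGFb and 42.1 ± 4.88 CPM with IL-1b (1.20 ± 0.18, adjusted p = 6.57e-06). Mdh2, malate dehydrogenase, averaged 302 ± 38.9 CPM with TGFb and 163 ± 18.3 CPM with IL-1b (0.89 ± 0.11, adjusted p = 6.8e-07). Atp5b, a subunit of the ATP synthase, averaged 862 ± 52.6 CPM with TGFb and 529 ± 38.96 CPM with IL-1b (0.70 ± 0.10, adjusted p = 6.46e-06). These 3 were higher in every TGFb library than in any IL-1b library. Pcx, pyruvate carboxylase, was lower, at 16.9, 17.1, 12.5 and 17.7 CPM with TGFb, against 66.9, 67.9, 45.96 and 79.9 CPM with IL-1b (-2.02 ± 0.15, adjusted p = 8.45e-11). Acod1, which makes the antimicrobial metabolite itaconate and is best known from macrophages, was at 0, 0.0492, 0 and 0.0841 CPM with TGFb and 2.69, 2.396, 1.79 and 4.67 CPM with IL-1b. The part of leukocytes in its level was not tested. The mitochondrially encoded mt-Nd4 did not pass, at 356 ± 47.6 CPM with TGFb and 349 ± 59.4 CPM with IL-1b (0.03 ± 0.18, adjusted p = 0.931).

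Of 26 cholesterol synthesis and uptake genes, 13 were higher and 2 lower with TGFb, with a median log2 fold change of 1.40. With the replicate block 23 were higher and 2 lower. Cyp51, which removes a methyl group from lanosterol, counted 217, 416, 148 and 361 CPM with TGFb, against 35.8, 75.99, 20.96 and 108 CPM with IL-1b, without overlap (2.25 ± 0.72, adjusted p = 0.0141, 1.94, adjusted p = 0.0523 without IL-1b library 3). Pmvk, a kinase of the mevalonate path, counted 25.03, 52.8, 15.4 and 40.5 CPM with TGFb, against 9.84, 13.8, 7.98 and 16.3 CPM with IL-1b, with overlap across numbers (1.48 ± 0.40, adjusted p = 0.0043). In both genes libraries 2 and 4 were the higher ones under either factor. The count of members higher rested on single libraries: 4 higher without IL-1b library 3, 5 higher without IL-1b library 1, 6 higher without TGFb library 2 and 8 higher without TGFb library 4 or IL-1b library 2. It was 7 with scaling by total counts alone. The 2 lower genes were Abca1 and Ch25h. Abca1, which exports cholesterol, averaged 45.8 ± 15.4 CPM with TGFb and 275 ± 19.5 CPM with IL-1b (-2.59 ± 0.35, adjusted p = 1.66e-06). Ch25h, which makes a regulatory hydroxycholesterol, averaged 9.39 ± 3.34 CPM with TGFb and 101 ± 11.2 CPM with IL-1b (-3.42 ± 0.48, adjusted p = 2.91e-06). Against SS, TGFb raised 22 of the 26 and IL-1b raised 3. In the iCre libraries the direct comparison called 5 of the 26 higher and 2 lower, against 16.8% and 14.4% of all genes tested there.

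Of 22 tested NRF2, glutathione and superoxide genes, 15 were lower and 0 higher with TGFb (17 and 0 with the block), with a median of -1.02. Sod2, the mitochondrial superoxide dismutase and an NF-kB target, counted 52.6, 62.5, 53.1 and 46.7 CPM with TGFb, against 597, 629.5, 382 and 645 CPM with IL-1b (-3.39 ± 0.16, adjusted p = 1.55e-14). Srxn1, sulfiredoxin, averaged 61.5 ± 1.28 CPM with TGFb and 227 ± 97.1 CPM with IL-1b (-1.89 ± 0.24, adjusted p = 5.48e-07). Nfe2l2, which encodes NRF2, averaged 122 ± 5.06 CPM with TGFb and 259 ± 22.02 CPM with IL-1b (-1.09 ± 0.17, adjusted p = 1.08e-05). The groups lay apart in each. Gstm1, a glutathione transferase, averaged 32.8 ± 11.2 CPM with TGFb and 207 ± 20.4 CPM with IL-1b (-2.66 ± 0.23, adjusted p = 1.14e-09), against 305 ± 39.4 CPM in SS. It was lower than SS with TGFb (-3.22 ± 0.23, adjusted p = 1.95e-10) and missed the threshold with IL-1b (-0.56 ± 0.21, adjusted p = 0.0676).

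Iron and zinc genes were lower with TGFb in 9 of 12 tested and higher in 0 (11 and 0 with the block). Fth1, the ferritin heavy chain that stores iron, counted 769, 903, 836 and 645 CPM with TGFb, against 5899, 4994, 5838 and 4266 CPM with IL-1b (-2.74 ± 0.15, adjusted p = 1e-13). Slc39a14, an importer of zinc and iron, averaged 91.3 ± 14.6 CPM with TGFb and 512 ± 91.00 CPM with IL-1b (-2.49 ± 0.23, adjusted p = 2.84e-09). Slc11a2, the iron transporter DMT1, averaged 39.6 ± 3.305 CPM with TGFb and 211 ± 23.1 CPM with IL-1b (-2.42 ± 0.15, adjusted p = 2.21e-12).

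Of 16 genes of the hypoxia-inducible factor list, 8 were lower and 1 higher (0 higher without IL-1b library 4), against 18.5% and 20.6% of all genes tested. Hif1a counted 225, 206, 193 and 336 CPM with TGFb, against 563, 548, 437 and 431 CPM with IL-1b (-1.04 ± 0.14, adjusted p = 1.85e-06). Angptl4, a lipase inhibitor, averaged 19.4 ± 15.5 CPM with TGFb and 626 ± 109.7 CPM with IL-1b (-5.01 ± 0.68, adjusted p = 1.8e-06, -5.75 without TGFb library 3). Adm, the vasodilator adrenomedullin, averaged 31.5 ± 4.51 CPM with TGFb and 359 ± 118 CPM with IL-1b (-3.51 ± 0.40, adjusted p = 1.21e-07). Vegfa, the angiogenic factor, was higher with TGFb, at 441 ± 31.2 CPM with TGFb and 281 ± 62.6 CPM with IL-1b (0.65 ± 0.20, adjusted p = 0.0132, 0.55, adjusted p = 0.0528 without IL-1b library 4). It was above its SS mean of 112 ± 22.6 CPM with either factor.

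Of 22 ATF4 and unfolded protein response genes, 11 were higher and 0 lower with TGFb (17 and 0 with the block), with a median of 0.52, while against SS TGFb raised 18 and IL-1b raised 14. Hspa5, the chaperone BiP of the endoplasmic reticulum, counted 2304, 2721, 2235 and 2044 CPM with TGFb, against 1480.4, 1448, 1455 and 953 CPM with IL-1b (0.80 ± 0.18, adjusted p = 0.001), against 803 ± 61.96 CPM in SS. Manf, a secreted stress factor, averaged 336 ± 65.3 CPM with TGFb and 169 ± 27.01 CPM with IL-1b (0.99 ± 0.17, adjusted p = 4.39e-05). Xbp1, a transcription factor of the response, averaged 173 ± 22.2 CPM with TGFb and 108 ± 13.6 CPM with IL-1b (0.68 ± 0.11, adjusted p = 3.65e-05).

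Of 20 tested genes of resting fibroblasts, 5 were lower and 3 higher with TGFb, shares near those of all genes tested (18.5% lower and 20.6% higher). With the block 10 were lower and 5 higher, against 25.3% and 25.9% of all genes tested. The lower share was then well above that of all genes. Pdgfra, the receptor that marks fibroblasts of the heart, counted 131, 112, 129 and 217 CPM with TGFb, against 887, 1175, 756 and 1538 CPM with IL-1b (-2.89 ± 0.49, adjusted p = 4.22e-05). Scara5, a ferritin receptor of resting stroma, averaged 0.599 ± 0.629 CPM with TGFb and 11.6 ± 10.01 CPM with IL-1b (-4.29 ± 0.97, adjusted p = 0.000937, -3.57 without IL-1b library 2, -5.32 without TGFb library 2), against 35.1 ± 21.8 CPM in SS. Ly6a, the stem cell antigen Sca-1, averaged 21.2 ± 2.505 CPM with TGFb and 270.2 ± 104 CPM with IL-1b (-3.67 ± 0.37, adjusted p = 1.4e-08). Meox1 was the largest increase of the list, at 132, 106, 185 and 42.7 CPM with TGFb, against 5.38, 2.903, 6.75 and 2.501 CPM with IL-1b (4.73 ± 0.70, adjusted p = 6.06e-06). Though placed on this list, Meox1 was low in SS, at 5.28 ± 3.43 CPM, and TGFb raised it over SS (4.46 ± 0.69, adjusted p = 8.56e-06). It did not behave as a marker of the unstimulated cells here. Thy1, a general fibroblast marker, did not pass, at 352 ± 78.8 CPM with TGFb and 367 ± 26.1 CPM with IL-1b (-0.06 ± 0.15, adjusted p = 0.781).

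Of 23 developmental transcription factors, 5 were higher and 3 lower with TGFb, shares near those of all genes tested. With the block 7 were higher and 4 lower, against 25.9% and 25.3% of all genes tested. Runx1 counted 87.7, 77.9, 66.8 and 67.1 CPM with TGFb, against 76.03, 87.9, 56.9 and 60.00 CPM with IL-1b, with overlap (0.09 ± 0.33, adjusted p = 0.855). It was above SS with both, where it averaged 13.3 ± 4.07 CPM. Prrx1, a mesenchymal homeobox factor, averaged 131 ± 57.6 CPM with TGFb and 451 ± 23.6 CPM with IL-1b (-1.78 ± 0.34, adjusted p = 0.000153). Meox2 counted 1.07, 0.591, 1.01 and 0.631 CPM with TGFb, against 30.2, 17.7, 23.5 and 11.2 CPM with IL-1b (-4.64 ± 0.81, adjusted p = 5.6e-05). The sister genes Meox1 and Meox2 differed in opposite directions. Egr2 (3.48 ± 0.74, adjusted p = 0.00053), Foxp1 (1.23 ± 0.32, adjusted p = 0.00317) and Sox9 (0.98 ± 0.29, adjusted p = 0.0088) were higher.

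Of 39 growth factor and receptor genes, 12 were higher and 7 lower with TGFb (13 and 13 with the block), with a median log2 fold change of -0.01. Among all genes tested the shares were 20.6% higher and 18.5% lower (25.9% and 25.3% with the block). Single libraries moved the list counts, with 7 higher without IL-1b library 4, and 3 lower without TGFb library 1 or 2 and 4 lower without IL-1b library 4. Fgf21, a stress hormone, counted 15.3, 20.2, 13.6 and 14.6 CPM with TGFb, against 0.119, 0.276, 0.105 and 0.1104 CPM with IL-1b (6.70 ± 0.74, adjusted p = 7.41e-08). Pdgfc averaged 87.7 ± 16.6 CPM with TGFb and 4.699 ± 1.79 CPM with IL-1b (4.22 ± 0.42, adjusted p = 1.7e-08). Hbegf, a ligand of the epidermal growth factor receptor, averaged 242 ± 129.6 CPM with TGFb and 15.3 ± 7.71 CPM with IL-1b (3.98 ± 0.69, adjusted p = 4.71e-05). Igf1, insulin-like growth factor 1, averaged 167 ± 40.3 CPM with TGFb and 30.9 ± 6.08 CPM with IL-1b (2.43 ± 0.35, adjusted p = 3.81e-06). All 4 were higher without overlap. Fgf7, a growth factor for epithelium, was lower, at 16.8 ± 10.6 CPM with TGFb and 124 ± 40.5 CPM with IL-1b (-2.88 ± 0.63, adjusted p = 0.000655), as was Fgfr1 (-0.81 ± 0.14, adjusted p = 3.39e-05).

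Few cell cycle genes passed: 4 of 33 were higher and 1 lower, against 20.6% and 18.5% of all genes tested. The block gave 5 and 2, against 25.9% and 25.3% of all genes tested. The median was -0.12. Mki67, a marker of dividing cells, counted 11.2, 3.99, 22.1 and 9.58 CPM with TGFb, against 9.77, 10.1, 52.3 and 7.21 CPM with IL-1b, with number 3 the highest in both groups (-0.76 ± 0.72, adjusted p = 0.434). Mcm6, a subunit of the replication helicase, was higher, at 48.2 ± 9.75 CPM with TGFb and 17.9 ± 3.59 CPM with IL-1b (1.43 ± 0.20, adjusted p = 3.11e-06). Mcm7, another subunit, was lower, at 14.6 ± 2.41 CPM with TGFb and 20.8 ± 4.49 CPM with IL-1b (-0.51 ± 0.14, adjusted p = 0.00572). Of 16 p53 targets, 4 were higher and 4 lower, near the shares of all genes tested (2 lower without TGFb library 4 or IL-1b library 4). With the block 6 were higher and 6 lower, against 25.9% and 25.3% of all genes tested. Pmaip1, the death protein NOXA, averaged 71.9 ± 15.01 CPM with TGFb and 14.00 ± 2.48 CPM with IL-1b (2.36 ± 0.28, adjusted p = 2.72e-07). Fas, the death receptor, averaged 48.97 ± 14.7 CPM with TGFb and 117 ± 22.9 CPM with IL-1b (-1.26 ± 0.23, adjusted p = 0.000111).

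Markers of other cells that a cardiac culture can hold are given by their summed level. Summed cardiomyocyte markers were 9.60 to 36.8 CPM with TGFb, 4.23 to 7.37 CPM with IL-1b and 44.7 to 128 CPM in SS, with Pln at 0 in all 8. Tnnt2, cardiac troponin T, was the 1 of 3 tested that was higher (2.12 ± 0.62, adjusted p = 0.00826). Summed mural cell markers were 265, 341, 243 and 487 CPM in TGFb libraries 1 to 4, 155, 269, 135 and 192 CPM in IL-1b libraries 1 to 4, and 601, 684, 566 and 201 CPM in SS libraries 1 to 4, with Higd1b at 0 in all 8 TGFb and IL-1b libraries. Each TGFb library was above the IL-1b library of its number, and number 4 was the highest with TGFb and the lowest in SS. Of 7 tested, 3 were higher (2 higher and 2 lower with the block; 1 lower without TGFb library 4 or IL-1b library 1, 2 or 3). Cspg4, the pericyte proteoglycan NG2, counted 96.3, 86.5, 127 and 251 CPM with TGFb, against 6.21, 5.71, 9.39 and 10.3 CPM with IL-1b (4.15 ± 0.40, adjusted p = 1.03e-08). Mcam averaged 65.6 ± 15.2 CPM with TGFb and 5.58 ± 0.599 CPM with IL-1b (3.55 ± 0.73, adjusted p = 0.000332). The part of mural cells in the contractile result was not tested. Summed Schwann cell markers were 5.72 to 15.0 CPM with TGFb and 6.88 to 11.7 CPM with IL-1b. Summed mesothelial markers were 5.75 to 11.1 CPM with TGFb and 4.63 to 7.60 CPM with IL-1b. Of the 10 cardiac fibroblast markers, 1 was higher and 3 lower (4 and 5 with the block; 0 higher without TGFb library 4 or IL-1b library 1, 2 or 3). Their summed level was 32162 to 45001 CPM with TGFb, 20864 to 35106 CPM with IL-1b and 21056 to 30719.6 CPM in SS, and 0 of the 10 were under 1 CPM in all 8 libraries.

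The same comparison in the 8 iCre libraries called 2816 genes higher (16.8%) and 2412 lower (14.4%), or 1589 and 3097 with total counts alone. Both sets of cells called 4638 genes in the same direction, 70.8% of the LacZ calls and 88.7% of the iCre calls, and 0 in opposite directions. Of the 6554 LacZ calls, 6514 had the same sign in iCre cells. The difference between the 2 sets was itself tested as an interaction: edgeR called 0 genes (273 at an unadjusted p under 0.05) and DESeq2 called 0 (288 unadjusted), and with the replicate block 0 were called (558 unadjusted). Each unadjusted count is below the 1 in 20 of the 16760 genes tested that chance alone gives. The test may thus have missed differences, and 0 calls do not show that the 2 sets are alike. The log2 fold changes in iCre cells were 4.62 ± 0.58 for Acta2, 6.96 ± 1.07 for Eln, -8.92 ± 0.49 for Cxcl5 and -9.21 ± 0.28 for Nos2, beside 4.36 ± 0.58, 6.68 ± 1.06, -9.63 ± 0.51 and -9.20 ± 0.29 in LacZ cells. Pkm itself averaged 1107 ± 181 CPM with TGFb and 1392 ± 349 CPM with IL-1b in iCre cells, against 1538 ± 159.7 CPM with TGFb and 1993 ± 488 CPM with IL-1b in LacZ cells. Counts over the whole gene do not show whether the floxed exon was lost. A gene that passed in one set and not in the other is therefore not shown to differ between them.

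**Figure D5:**
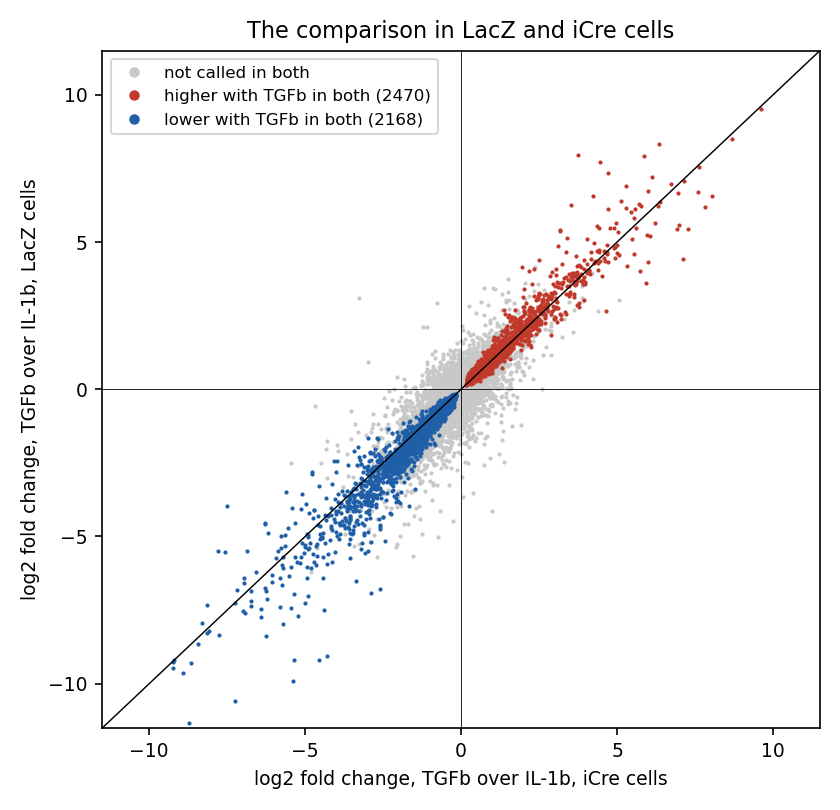
Log2 fold change of TGFb over IL-1b in LacZ cells (vertical axis) against the same in iCre cells (horizontal axis) for the 16760 genes tested, with genes called in both sets in colour and the line of equal change drawn. The 4638 genes called in both lie in the upper right and lower left corners, and 0 lie in the other corners.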

How the data were processed

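RNA came from cultured mouse cardiac fibroblasts (RNeasy Micro and NEBNext Ultra II kits, per the labels' protocols). The authors deposited whole-number read counts for 55414 genes in 32 libraries, made with HTSeq 0.10.0 on mm10 (GRCm38) after FastQC 0.10.1, per the submitters' processing notes; the sources used here do not give the aligner, the annotation or the handling of strand. Reads of overlapping antisense genes therefore cannot be told apart. Gene IDs were named with GENCODE M21 (52133 matched, with 99.77% of counts).

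All 32 libraries entered 1 edgeR 4.0.16 model (R 4.3.3; TMM, filterByExpr, robust quasi-likelihood test, 1 mean per group), and p-values were adjusted by Benjamini-Hochberg over the 16760 genes kept. CPM and log2 CPM were computed from the counts. On simulated data with 50 genes changed at each size, the fit found 38%, 68%, 90% and 98% of 1.5-, 2-, 4- and 8-fold changes, with 6 false calls of 153. No 2 of the 8 libraries agreed within sampling noise (chi-square over its degrees of freedom at least 16.7). Same-numbered TGFb and IL-1b libraries correlated in their deviations from the group means at 0.238, 0.209, 0.486 and 0.585, all above 0.1, so the numbers were taken to pair them. Alternatives were the replicate block, DESeq2 1.42.0, other scalings and filters, only the groups compared, and leaving out number 4 or single libraries.

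The members and the 41 gene lists (34 pathway and 7 marker lists, 784 of 833 entries tested) were chosen with earlier results of these data known. Genes named are up to 15 in each direction with the largest fold change (adjusted p under 0.05, average log2 CPM of at least 3, no overlap), up to 5 per list and direction by p with members of interest that missed the threshold, a fixed set (Pkm, Map3k7, Acta2, Postn, Col1a1, Nos2, Il6, Cxcl5, Ccl2), and abundant list genes with the smallest change; the interaction gave none. Some genes that this rule selects are not reported here. Promoters are from RefSeq (27025 symbols, 11510 matched to tested genes).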

Additional observations from a re-analysis of the deposited data

Results flagged for a closer look

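The values of the named genes in each LacZ group of 4 were searched for a library standing apart, taken as a gap to its nearest neighbour whose share of the group's whole range passes Dixon's critical value for 4 values. Of 396 pairs of gene and group, 33 met it, against about 19.8 (1 in 20) that chance gives; 17 were in the TGFb group and 16 in the IL-1b group. By library number there were 1, 4, 10 and 18 in numbers 1 to 4. The cause was not tested. The share of the range taken by the gap is in brackets after each level.

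In the TGFb group 11 were the highest library, namely Aldh3a1 in library 2 at 1.53 CPM (0.907), Angptl4 in library 3 at 42.6 CPM (0.916), Cnn1 in library 4 at 253 CPM (0.886), Csf3 in library 4 at 0.042 CPM (1.0), Cxcl12 in library 4 at 1323 CPM (0.854), Fgf7 in library 4 at 32.7 CPM (0.885), Hp in library 4 at 9.5 CPM (0.947), Mcm6 in library 3 at 62.6 CPM (0.843), Mmp12 in library 3 at 0.842 CPM (0.87), Mylk in library 4 at 24.9 CPM (0.953) and Serpinb2 in library 3 at 3.58 CPM (0.876). Csf3 had no count in the other TGFb libraries and very few reads in library 4, so its share of 1.0 rests on the floor. The lowest library stood apart in 6, namely Abca1 in library 2 at 22.9 CPM (0.83), Mcam in library 4 at 43.0 CPM (0.868), Pcx in library 3 at 12.5 CPM (0.853), Pmaip1 in library 4 at 49.6 CPM (0.836), Pycr1 in library 4 at 101 CPM (0.935) and Smad4 in library 2 at 74.4 CPM (0.927).

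In the IL-1b group 11 were the highest library, namely Cnn1 in library 4 at 7.91 CPM (0.974), Col8a2 in library 4 at 2.57 CPM (0.893), Fgf21 in library 2 at 0.276 CPM (0.923), Il11 in library 3 at 3.80 CPM (0.878), Mcm7 in library 3 at 27.5 CPM (0.877), Mki67 in library 3 at 52.3 CPM (0.936), Mylk in library 4 at 103 CPM (0.847), Plxna4 in library 4 at 9.42 CPM (0.92), Ptges3 in library 1 at 111 CPM (0.841), Tgfbr3 in library 4 at 222 CPM (0.934) and Tpm2 in library 4 at 123 CPM (0.93). The lowest library stood apart in 5, namely Cxcl1 in library 4 at 565 CPM (0.88), Fas in library 3 at 83.2 CPM (0.855), Hspa5 in library 4 at 953 CPM (0.939), Phgdh in library 4 at 42.5 CPM (0.835) and Steap4 in library 3 at 471 CPM (0.892).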

How the results depend on the processing

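The direct comparison in LacZ cells called 5711 to 8593 genes over all settings tried (6554 as reported): 8593 with the replicate block, 6844 by DESeq2, 6506 with RLE size factors, 7491 without the libraries of number 4, 5711 with no filter, 6281 with the stricter filter, 5860 with only its 8 libraries (6924 with the block) and 5711 to 6244 without 1 library. Of the reported calls, 6548 were called in the same direction with the block and 6453 by DESeq2, and 0 were called in the opposite direction under any setting. Of the 198 tested genes that the text names, 6 were gained with the block, 2 by DESeq2 and 8 without number 4 (Col1a1, Cxcl12, Ldha, Lif, Mylk, Pkm, Ptges and Smad2), 0 were lost under these settings, and the block changed no other call among them; Fbln1 and Vegfa were lost without IL-1b library 4, Cyp51 without IL-1b library 3, and Id3 without TGFb library 1 or 3. In iCre cells, 2816 genes were higher as reported and 1589 with total counts alone. Against SS, TGFb raised 3925 genes as reported and 2553 with total counts alone. For IL-1b against SS the replicate block gave 2810 higher, 2608 lower and 5418 changed, against 1853, 1363 and 3216 as reported; without number 4 there were 2196 lower and 4874 changed, and without 1 library 907 to 1345 lower; the cause was not tested. Fits to only the groups compared were added after the data were seen for all comparisons but the first. Among genes simulated at these depths, 38% of 1.5-fold and 98% of 8-fold changes were found, so small differences that did not pass may have been missed. The simulation changed far fewer genes than were called here and held no shared deviation by library number. Its rates may therefore not hold for these data.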
